A study of Saccharomyces cerevisiae with 12 samples.

Results

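Transcript levels of Saccharomyces cerevisiae grown in 0.5% glucose were compared with those of cells grown in 2% glucose, the pair of media most often used to model calorie restriction in budding yeast. The contrast rests on the 3 arrays whose labels give 0.5% glucose and the 3 whose labels give 2% glucose, 6 of the 12 arrays of a series that also holds 3 arrays each at 1% and 0.25% glucose. Every yeast gene that had a listed name and a probe set above 0 was taken, 5449 genes in all, and the 4086 whose mean signal exceeded 110, the percentile 25 of the gene means, were tested. The 2 groups differ in glucose by label. The titles carry an unexplained "log" that may stand for the growth phase. The sources used here do not give the strain, its genotype or the time of sampling. The series design names the 3 arrays of a level biological replicates, with nothing further on how the cultures were kept apart, so the p-values below measure the spread between these arrays. Values are array signals on a linear scale, already scaled by the authors so that the trimmed mean was 500.0 on each array. Such values show levels relative to the other transcripts of the same RNA, and a change in RNA per cell cannot be told apart from a change in the share of cells that express a gene.

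Budding yeast prefers glucose and ferments it even in air. High glucose keeps genes for other carbon sources, respiration and gluconeogenesis off through the repressor Mig1, and the kinase Snf1 lifts that repression when glucose runs low. Glucose sensors in the plasma membrane act through Mth1, Std1 and the repressor Rgt1 to match the hexose transporters to the sugar outside: low-affinity carriers for plentiful glucose, high-affinity carriers for scarce glucose. Protein kinase A and TOR signal plenty, favouring ribosome synthesis and holding back the stress activators Msn2 and Msn4, which drive genes for storage carbohydrates and protection. Growth in 0.5% instead of 2% glucose extends replicative life span in many laboratory strains, and work on that effect has centred on respiration driven by Hap4, NADH shuttles, the deacetylase Sir2 and the nicotinamidase Pnc1, and reduced protein kinase A, TOR and Sch9 signalling.

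At 0.5% glucose a small set of genes differed from 2% glucose, a minority of them by 2-fold or more, while most genes moved little. With limma and Benjamini-Hochberg adjustment over the 4086 genes, 47 passed an adjusted p of 0.05, which is 1.15% of those tested: 33 were higher (0.808%) and 14 were lower (0.343%) at 0.5% glucose. High-affinity hexose carriers, the hexokinase gene HXK1, a sodium-driven phosphate carrier, glycogen enzymes, stress genes, retrotransposon genes and iron uptake genes made up most of the rises. The largest fall was that of the low-affinity hexose carrier gene HXT1. Of the 47, 14 rose and 1 fell by at least 2-fold, and in all 47 the 3 arrays at 0.5% lay wholly above or wholly below the 3 at 2%. Such separation was seen in 21.5% of all tested genes, 6.53% higher and 15% lower, so it is common here. Arrays with the same replicate number tended to deviate together, but the main fit had no replicate block. A fit with that number as a block called 396 genes (9.69%), 137 higher (3.35%) and 259 lower (6.34%), with all 47 among them. Scaling the arrays to a common median called 84, of which 69 were higher and 15 lower. Leaving out replicate 2 at 0.5% gave 23 calls, replicate 3 at 0.5% gave 28, replicate 1 at 2% gave 28 and replicate 3 at 2% gave 73. Of the 47, 20 stayed past the threshold in every alternative fit that tested them, 17 higher and 3 lower, the 3 being HXT1, TIR1 and ADE17; 5 of the 20 (DDR2, GLC3, GPH1, GSY1 and YMR196W) were too dim for the fit with the filter at percentile 50. With the 0.5% and 2% arrays alone in the fit, the 9 genes CBF1, GLK1, EMI2, GSY2, HIS4, YPR1, RSN1, AAC3 and PDR12 were not called (adjusted p between 0.051 and 0.085). Without the intensity trend GLK1, HIS4 and YPR1 were not (between 0.053 and 0.065), and after quantile normalization MET2, GLT1 and HPF1 were not (between 0.057 and 0.091). The filter used the mean over all arrays, and 7 of the 33 higher genes (DDR2, GLC3, GPH1, GSY1, MET2, TMA10 and YMR196W) had a 2% mean under its limit of 110, so they were tested through the levels at which they were high.

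**Figure D1:**
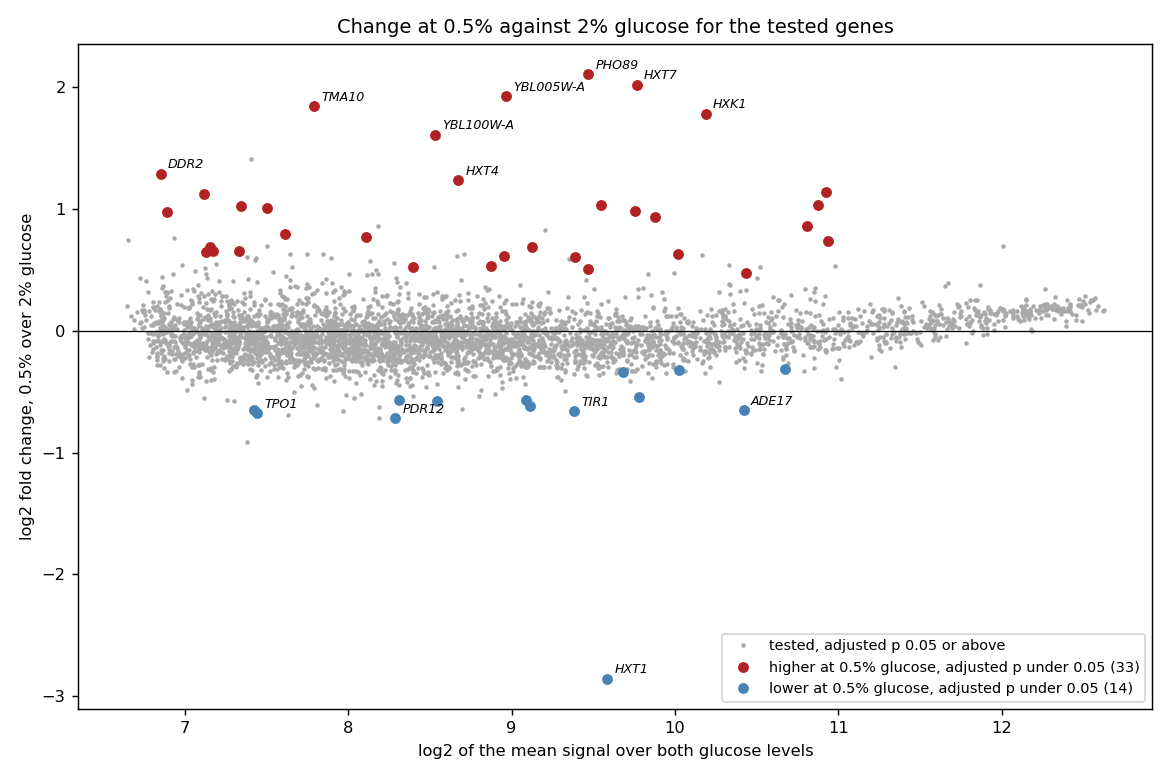
Log2 fold change at 0.5% over 2% glucose (vertical axis) against the log2 mean signal over both levels (horizontal axis) for the 4086 tested genes; coloured points are the 33 genes higher and 14 lower at an adjusted p under 0.05. HXT1 stands alone at -2.86, PHO89 and HXT7 lie above 2, and the brightest genes sit slightly above 0.

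The 2% arrays stood apart in a measure of RNA quality. Over 7 control genes with probe sets at both ends of the transcript, the log2 ratio of 3′ over 5′ signal averaged 0.908, 0.939 and 0.884 on the 0.5% arrays, against 1.417, 1.244 and 1.191 on the 2% arrays. The groups did not overlap, and the exact two-sided permutation p of 0.1 is the smallest that 3 arrays against 3 can give. For 17 probe sets of ribosomal RNA the average log2 signal was 9.513, 8.362 and 9.369 on the 0.5% arrays, against 6.883, 7.653 and 8.761 on the 2% arrays; these overlapped (exact permutation p = 0.2). The part of either measure in the results was not tested beyond a fit with the ribosomal RNA signal as a covariate, which called 26 genes. The 3′ to 5′ ratio averaged 0.88 at 0.25%, 0.91 at 0.5%, 0.876 at 1% and 1.284 at 2% glucose, and the ribosomal RNA signal 8.904, 9.081, 8.92 and 7.766. The ratio at 1% was close to that at 0.5%. Between these 2 levels 4 of the 47 called genes passed the threshold, HXT7, TMA10, ALD4 and HXT1, and the other called genes did not. Correlations of log2 signals over genes were 0.986 to 0.9933 among the 0.5% arrays, 0.9836 to 0.9895 among the 2% arrays and 0.967 to 0.9871 between the levels. Of 6 genes of a cells 5 were bright at both levels, with ASG7 the exception at 90.3 and 121, and with MFA2, an a-factor precursor gene, at 2435 and 2518 and the alpha-factor receptor gene STE2 at 2271 and 2122 at 0.5% and 2% glucose. Genes of alpha cells were near background, with the a-factor receptor gene STE3 at 37.3 and 32.5, and 9 of 10 sporulation genes were too dim to be tested.

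Among hexose transporter genes HXT1 fell, more than any other tested gene, and HXT7, HXT2 and HXT4 rose. HXT1, which encodes a low-affinity carrier made at high glucose, had signals of 195, 182 and 182 at 0.5% glucose, against 1430, 1300 and 1321 at 2% glucose. The 0.5% arrays agreed closely and none came near any 2% array. The difference was -2.86 on the log2 scale (SE 0.15, adjusted p = 4.5e-08), or 7.24-fold lower. HXT7, a high-affinity carrier, had 1306, 1487 and 1390 at 0.5%, against 348, 394 and 294 at 2%, a log2 change of 2.02 (SE 0.10, adjusted p = 4.5e-08). HXT6, its near-identical neighbour, has no probe set of its own in the values used, so the HXT7 signal may hold both. HXT2, another carrier of low glucose, had 2570, 2658 and 2783 at 0.5%, against 1328, 1142 and 1160 at 2%, a log2 change of 1.14 (SE 0.08, adjusted p = 2.9e-07). HXT4, a further carrier repressed by plentiful glucose, had 525, 572 and 621 at 0.5%, against 267, 251 and 212 at 2%, a log2 change of 1.24 (SE 0.21, adjusted p = 0.0065). In all 3 genes every 0.5% array was above every 2% array.

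HXT3, a second low-affinity carrier, averaged 1784 ± 4.4 at 0.5% and 2353 ± 198 at 2% glucose (SD, n = 3 each). Its log2 difference of -0.40 missed the threshold (adjusted p = 0.075) and passed it with the replicate block (adjusted p = 0.0084). The sensor gene SNF3 differed by 0.17 (adjusted p = 0.55), and its paralogue RGT2, at 86.8 and 95.7, was too dim to be tested, as was the carrier gene HXT5 at 23.5 and 23.1. Thus 4 of the 6 tested members of the hexose carrier and sensor list were called, 3 higher and 1 lower. The list median was 0.655 beside -0.048 over all tested genes. For 1 of the 6 the mean was over the brightness limit at 0.5% and under it at 2% glucose. This and the other gene lists were drawn up with earlier results of these data known. Their counts and medians are therefore descriptions and not separate evidence.

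**Figure D2:**
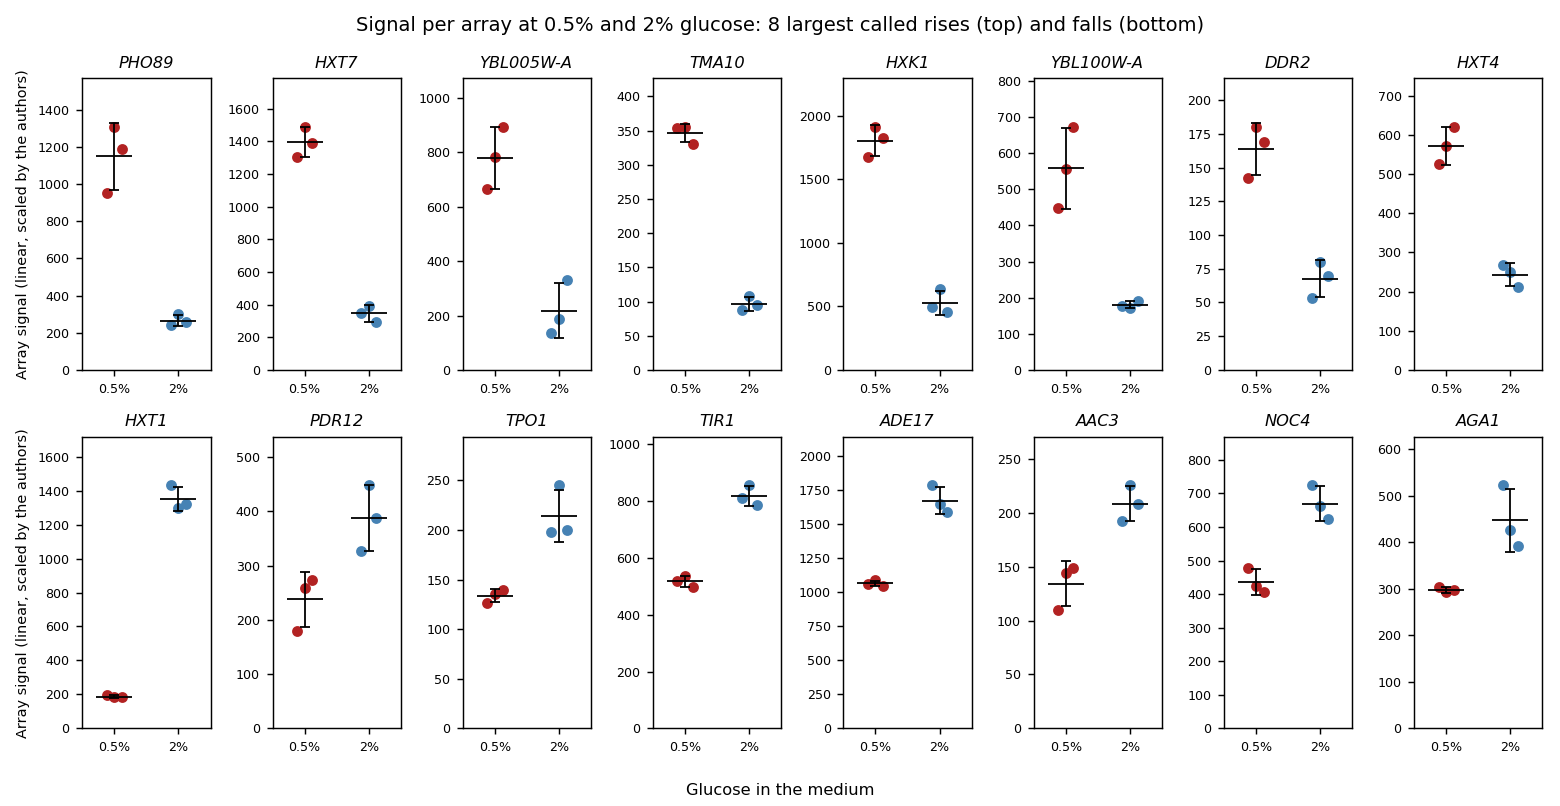
Signal on each array (vertical axes, linear, each from 0) at 0.5% glucose (red) and 2% glucose (blue) for the 8 genes with the largest called rises (top) and falls (bottom); points are arrays, bars the mean and SD of 3. In each panel the 3 arrays at 0.5% glucose lie wholly to one side of the 3 at 2% glucose.

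The tested regulators of glucose sensing and repression did not pass the test: 0 of 19 listed genes were called, with a median of 0.026, and with the replicate block 1 was lower. That gene was MIG2, a repressor related to Mig1, with 351, 268 and 220 at 0.5%, against 502, 342 and 290 at 2% glucose (log2 difference -0.42, adjusted p = 0.47, blocked adjusted p = 0.028). MIG1 differed by 0.25 (adjusted p = 0.45), RGT1 by 0.03 (adjusted p = 0.92), STD1 by -0.21 (adjusted p = 0.44), SNF1 by -0.18 (adjusted p = 0.40), REG1, the regulatory subunit gene of the phosphatase that opposes Snf1, by 0.15 (adjusted p = 0.55), and HXK2, the main hexokinase gene at high glucose, by 0.14 (adjusted p = 0.53). The unadjusted p was under 0.05 in 14.1% of all tested genes.

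Several regulators lay below the brightness limit and were reached in a fit of all 5449 genes, which called 74 (1.36%), 55 of them higher (1.01%) and 19 lower (0.349%); 15 of the 74 were dim genes, 14 of these higher. MTH1, a co-repressor that works with Rgt1 at the HXT promoters, had 120, 114 and 112 at 0.5%, against 54.1, 41.2 and 43.1 at 2% glucose, a log2 rise of 1.34 (adjusted p = 0.0081). MIG3, a relative of Mig1, had 45.2, 29.4 and 28.4 at 0.5%, against 137, 102 and 109 at 2%, a log2 fall of -1.78 (adjusted p = 0.0013). The groups were far apart in both genes. ADR1, an activator of genes for ethanol and fatty acid use, had 87.2, 103 and 116 at 0.5%, against 36.8, 46.0 and 52.2 at 2%, a log2 rise of 1.19 (adjusted p = 0.0014). CAT8, an activator of gluconeogenesis genes, was at 37.7, 33.5 and 37.5 at 0.5%, against 13.6, 27.8 and 15.7 at 2%, and just passed (log2 change 1.00, adjusted p = 0.049). HAP4, the glucose-regulated subunit of the activator of respiratory genes, averaged 105 at 0.5% and 70.7 at 2% glucose with no overlap between the groups, and did not pass (log2 difference 0.58, adjusted p = 0.17). MSN4 averaged 78.2 at 0.5% and 43.9 at 2% (log2 difference 0.90, adjusted p = 0.075), while its tested paralogue MSN2 differed by -0.07 (adjusted p = 0.78). MAL33, which encodes an activator of maltose genes, also dim, rose by 1.47 (adjusted p = 0.00050), with means of 88.0 at 0.5% and 31.6 at 2%.

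Among genes for the use of other sugars and ethanol, 4 of 8 tested members rose and none fell, with a median of 0.546. For 1 of the 8 the mean was over the brightness limit at 0.5% and under it at 2% glucose, so the median is shaped in part by the filter. HXK1, a hexokinase repressed by high glucose, had 1672, 1911 and 1826 at 0.5%, against 492, 634 and 459 at 2% glucose. The groups were well apart, and the log2 change was 1.78 (SE 0.11, adjusted p = 2.1e-07). ALD4, the main mitochondrial aldehyde dehydrogenase gene, had 1198, 1222 and 1284 at 0.5%, against 629, 666 and 646 at 2%, a log2 change of 0.93 (SE 0.08, adjusted p = 1.0e-05). GUT2, which oxidises glycerol 3-phosphate at the mitochondrial membrane, had 171, 179 and 180 at 0.5%, against 111, 126 and 101 at 2%, a log2 change of 0.65 (adjusted p = 0.0078). GLK1, the glucokinase gene, had 1036, 1247 and 1493 at 0.5%, against 693, 956 and 790 at 2%, a log2 change of 0.63 (adjusted p = 0.037). EMI2, a hexokinase-like gene related to GLK1 and picked for mention after its values were seen, rose by 0.53 (adjusted p = 0.021). SUC2, the invertase gene, averaged 338 at 0.5% and 244 at 2% (log2 difference 0.46, adjusted p = 0.22, blocked adjusted p = 0.012). The alcohol dehydrogenase gene ADH2, at 61.8 and 51.9, and the lactate carrier gene JEN1, at 19.8 and 9.45, were dim at 0.5% and 2% glucose. GUT2 was not called without replicate 2 at 0.5% (adjusted p = 0.052); GLK1 was not called without replicate 2 or 3 at 0.5% or replicate 1 or 3 at 2% (between 0.062 and 0.19) and EMI2 without replicate 2 or 3 at 0.5% or 1 at 2% (between 0.081 and 0.11). GLK1 and EMI2 were at 0.22 and 0.20 once ribosomal RNA was a covariate.

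Gluconeogenesis and the glyoxylate cycle showed no called gene. FBP1 (8.71 and 6.32), PCK1 (30.5 and 29.4) and ICL1 (40.2 and 32.0 at 0.5% and 2% glucose), which encode the key enzymes of these routes, were all under the brightness limit, and 5 of the 15 listed genes were tested, with a median of 0.122. None of the 20 tested glycolysis and fermentation genes was called; 18 had a positive difference and the median was 0.198. In the brightest decile of the tested genes the median was 0.098, after quantile normalization the glycolysis median was 0.027, and within replicate 3 it was 0.023. PYK2, the minor pyruvate kinase isoenzyme, averaged 227 at 0.5% and 166 at 2% glucose and passed with the replicate block (log2 difference 0.45, adjusted p = 0.099, blocked adjusted p = 0.019).

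Respiratory genes differed modestly and few passed. NDE1, the external NADH dehydrogenase of the mitochondrion, had 729, 844 and 928 at 0.5%, against 616, 579 and 556 at 2% glucose, a log2 rise of 0.51 (SE 0.09, adjusted p = 0.015). It was the 1 called gene of 20 in the respiratory chain list, whose median was 0.022 (0.184 with the ribosomal RNA covariate and -0.046 without replicate 3 at 2%). With the replicate block RIP1, the Rieske iron-sulfur protein of complex III, and COX4, a cytochrome c oxidase subunit, also passed, with log2 differences of 0.47 (adjusted p = 0.15, blocked 0.037) and 0.42 (adjusted p = 0.13, blocked 0.017). CYC1, the major cytochrome c gene, averaged 543 at 0.5% and 538 at 2%, and CYT1, cytochrome c1, averaged 160 and 131 (adjusted p = 0.96 and 0.35). None of 21 tricarboxylic acid cycle genes (median 0.113, or 0.014 with the ribosomal RNA covariate and 0.043 without replicate 1 at 2%) and none of 17 ATP synthase genes (median 0.123) was called, against 3 and 4 higher with the block. The 3 were LSC2, a succinyl-CoA ligase subunit (0.56, blocked adjusted p = 0.0055), CIT1, citrate synthase (0.32, 0.016), and MDH1, mitochondrial malate dehydrogenase (0.29, 0.0058). The largest of the 4 was INH1, the inhibitor of ATP synthase, with 208, 199 and 192 at 0.5%, against 128, 173 and 101 at 2% (log2 difference 0.61, adjusted p = 0.082, blocked 0.0098). In the list of NADH shuttles, GUT2 and NDE1 were the called members among 14, and the shuttle genes AAT1, AGC1 and GPD1 were not called, nor was LAT1 of pyruvate dehydrogenase. NDE1 was not called without replicate 2 or 3 at 0.5% (0.087 each) or replicate 2 at 2% (0.060), and GUT2 without replicate 2 at 0.5% (0.052).

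Of the 21 listed trehalose and glycogen genes 15 were tested, of which 4 rose and none fell, and the median was 0.34. For 4 of the 15, GPH1, GLC3 and GSY1 among them, the mean was over the brightness limit at 0.5% and under it at 2% glucose, so the count and median are shaped by the filter. GPH1, glycogen phosphorylase, had 165, 206 and 202 at 0.5%, against 76.5, 100 and 85.5 at 2% glucose, a log2 change of 1.13 (SE 0.13, adjusted p = 0.00013). GLC3, the branching enzyme, had 194, 218 and 239 at 0.5%, against 81.0, 131 and 112 at 2%, a log2 change of 1.03 (SE 0.15, adjusted p = 0.0023). GSY1, a glycogen synthase isoform, had 142, 169 and 162 at 0.5%, against 75.4, 90.7 and 74.2 at 2%, a log2 change of 0.98 (SE 0.11, adjusted p = 0.00014). Enzymes of synthesis and of breakdown were both among them, and no 0.5% array overlapped a 2% array. GSY2, the major synthase isoform, averaged 397 at 0.5% and 276 at 2% (log2 change 0.52, adjusted p = 0.037), and was not called without replicate 2 or 3 at 0.5% or 1 or 3 at 2% (between 0.065 and 0.19) and with the ribosomal RNA covariate (0.14). With the block 9 were higher, the added 5 including TSL1, a regulatory subunit of trehalose synthase, at 0.62 (adjusted p = 0.29, blocked 0.0072), PGM2, phosphoglucomutase, at 0.54 (0.079, blocked 0.013), and TPS2, trehalose phosphate phosphatase, at 0.36 (0.19, blocked 0.024). TPS1, which makes trehalose phosphate, differed by 0.28 (adjusted p = 0.41, blocked 0.066). IGD1, an inhibitor of glycogen debranching too dim for the main test, rose by 0.74 in the fit of all genes (adjusted p = 0.048).

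Of the general stress genes 3 of 16 tested rose, and with the block 6. For 2 of the 16, TMA10 and DDR2, the mean was over the brightness limit at 0.5% and under it at 2% glucose. The count and median are therefore shaped by the filter. The list median was 0.215, but 0.079 with the ribosomal RNA covariate, 0.125 with the dim filter at percentile 50 and 0.141 without replicate 1 at 2%. TMA10, which encodes a small ribosome-associated protein, had 354, 355 and 331 at 0.5%, against 88.0, 108 and 94.2 at 2% glucose, a log2 change of 1.85 (SE 0.12, adjusted p = 2.9e-07). DDR2, a small stress-induced gene, had 142, 180 and 169 at 0.5%, against 53.0, 80.0 and 69.4 at 2%, a log2 change of 1.29 (SE 0.15, adjusted p = 0.00017). HSP12, a membrane-associated stress protein, had 392, 298 and 350 at 0.5%, against 185, 250 and 179 at 2%, a log2 change of 0.77 (adjusted p = 0.022). For TMA10 and DDR2 the groups were widely separated, while the lowest 0.5% array and the highest 2% array of HSP12 lay close. HSP12 was not called without replicate 1 or 3 at 0.5% or 1 or 3 at 2% (between 0.057 and 0.13) and with the ribosomal RNA covariate (0.13). SPI1, a cell wall stress gene, averaged 164 at 0.5% and 115 at 2% (log2 difference 0.52, adjusted p = 0.054, blocked 0.012). The catalase gene CTT1 was dim, at 43.9 and 46.7. Heat shock chaperones gave 0 called of 20, with a median of 0.102 (-0.018 with the ribosomal RNA covariate) and HSP42 higher with the block; HSP26 differed by -0.03 (adjusted p = 0.92), HSP104 by 0.10 (0.68) and SSA4 by 0.02 (0.96). Antioxidant genes gave 0 of 22 with a median of -0.004; the mitochondrial peroxiredoxin gene PRX1 differed by 0.34 (adjusted p = 0.060, blocked 0.010) and the regulator gene YAP1 by 0.39 (0.13, blocked 0.035), while the superoxide dismutase genes SOD1 and SOD2 differed by 0.15 (0.51) and 0.00 (0.99).

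No tested gene of NAD synthesis or of the sirtuins passed the test without the replicate block. With it 1 of 20 was higher and 2 were lower, beside 3.35% and 6.34% of all tested genes. No sirtuin gene was among them. SIR2, the NAD-dependent deacetylase, averaged 278 ± 20.7 at 0.5% and 290 ± 9.57 at 2% glucose (SD, n = 3 each), a log2 difference of -0.06 (adjusted p = 0.78). PNC1, which clears nicotinamide, had 1544, 1457 and 1440 at 0.5%, against 1221, 1290 and 1271 at 2%. These did not overlap, and the log2 difference of 0.23 passed with the replicate block alone (adjusted p = 0.099, blocked 0.023). HST2, a cytosolic relative of Sir2, differed by 0.24 (0.54) and NPT1, of the NAD salvage route, by -0.05 (0.77). BNA4 and BNA7, of NAD synthesis from tryptophan, were at -0.39 and -0.34 and passed with the block (blocked adjusted p = 0.037 and 0.034). None of 20 tested NAD and sirtuin genes was called without it, and the list median was -0.064.

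Among kinase genes TOR1 averaged 190 at 0.5% and 235 at 2% glucose, and TOR2 averaged 295 and 365; both differed by -0.31 (adjusted p = 0.18 each) and passed with the block (0.043 and 0.035). GIS1, a transcription factor of the post-diauxic response, differed by 0.41 (0.23, blocked 0.034). SCH9 differed by 0.04 (0.92), RAS2 by 0.12 (0.48) and CYR1, adenylate cyclase, by -0.14 (0.52), while RIM15 was dim at 55.2 and 44.7. None of the 17 TOR and stress regulator genes and none of the 14 Ras and protein kinase A genes was called, and their medians were 0.035 and -0.065.

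PHO89, which encodes a sodium-coupled phosphate carrier of the plasma membrane, had the largest rise of all tested genes. Its signals were 953, 1307 and 1191 at 0.5%, against 239, 300 and 258 at 2% glucose, a log2 change of 2.11 (SE 0.14, adjusted p = 2.9e-07), or 4.31-fold. The lowest 0.5% array was far above the highest 2% array. The other 20 tested genes of the phosphate regulon were not called. PHO84, the main high-affinity phosphate carrier, differed by 0.17 (adjusted p = 0.52) and PHO5, the secreted acid phosphatase, by 0.26 (0.37, blocked 0.035). With the block the list held 2 higher and 2 lower, and its median was 0.069.

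Among iron uptake genes 5 of 24 tested members of the iron regulon were higher and none lower. The median was 0.358, and 13 were higher with the block. For 1 of the 24, TIS11, the mean was over the brightness limit at 0.5% and under it at 2% glucose. The median and the count with the block are therefore shaped in part by the filter. FIT2, a mannoprotein that holds siderophore iron in the cell wall, had 2327, 2741 and 2483 at 0.5%, against 1118, 1291 and 1285 at 2% glucose, a log2 change of 1.03 (SE 0.17, adjusted p = 0.0065). SIT1, a siderophore carrier, had 975, 1186 and 1286 at 0.5%, against 494, 595 and 649 at 2%, a log2 change of 0.99 (SE 0.14, adjusted p = 0.0016). FET3, the ferroxidase of high-affinity iron uptake, averaged 2315 ± 379 at 0.5% and 1262 ± 103 at 2% (SD, n = 3 each; log2 change 0.86, adjusted p = 0.0065). In each of these genes all 0.5% arrays were above all 2% arrays. FIT3 rose by 0.74 (adjusted p = 0.014) and the enterobactin carrier gene ENB1 by 0.69 (0.037). TIS11, whose product speeds decay of messages for iron-using proteins, had 185, 212 and 344 at 0.5%, against 66.6, 97.2 and 111 at 2%. Its log2 difference of 1.41 missed the threshold (adjusted p = 0.062) and passed with the block (0.00075), as did the siderophore carrier gene ARN1 at 0.63 (0.053, blocked 0.0058). FTR1, the permease partner of FET3, differed by 0.30 (0.33) and the low-affinity carrier gene FET4 by 0.00 (1.0). HMX1, a haem oxygenase gene that was dim, rose by 0.89 in the fit of all genes (0.025). Without replicate 2 at 0.5% the adjusted p of FIT2 was 0.052; FIT3 was not called without replicate 2 or 3 at 0.5% or 1 at 2% (between 0.072 and 0.089) and ENB1 without replicate 2 or 3 at 0.5% or 1 or 2 at 2% (between 0.091 and 0.19). FET3, FIT3 and ENB1 were at 0.087, 0.061 and 0.22 once ribosomal RNA was a covariate.

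In the list of sulfur and methionine genes 3 of 23 tested members rose and none fell. For 2 of the 23, MET2 among them, the mean was over the brightness limit at 0.5% and under it at 2% glucose. This count and median are also shaped by the filter. CBF1, the helix-loop-helix factor of methionine genes and centromeres, had 168, 209 and 213 at 0.5%, against 103, 132 and 141 at 2% glucose (log2 change 0.65, adjusted p = 0.038). MET2, homoserine acetyltransferase, had 183, 173 and 158 at 0.5%, against 109, 107 and 111 at 2% (0.65, 0.047), and MET14, adenylylsulfate kinase, had 645, 641 and 516 at 0.5%, against 340, 432 and 403 at 2% (0.62, 0.027). The groups did not overlap in any of the 3. The list median was 0.17 (0.078 with the ribosomal RNA covariate and 0.104 without replicate 1 at 2%), and with the block 8 were higher. In the fit of all genes the dim sulfate carrier gene SUL2 rose by 0.68 (0.036) and the regulator gene MET28 by 0.94 (0.021). CBF1 was not called without replicate 2 or 3 at 0.5% or 1 or 2 at 2% (between 0.067 and 0.20) and MET2 without any 1 of the 6 arrays (between 0.061 and 0.19). MET14 was not called without replicate 1 or 2 at 0.5% or 1 at 2% (between 0.096 and 0.17), and with the ribosomal RNA covariate CBF1, MET2 and MET14 were at 0.30, 0.37 and 0.13.

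A few of the called genes come from retrotransposons or chromosome ends; they belong to no list and are given one by one. YBL005W-A, a Ty Gag gene, had 666, 784 and 894 at 0.5%, against 137, 186 and 332 at 2% glucose, a log2 change of 1.93 (SE 0.24, adjusted p = 0.00044). YBL100W-A, another Ty Gag gene, had 449, 555 and 672 at 0.5%, against 178, 172 and 191 at 2%, a log2 change of 1.61 (SE 0.14, adjusted p = 7.0e-06). Both were clear of overlap, and the 2% arrays of YBL005W-A varied more than those of YBL100W-A. YIL082W-A, from a Ty3 element, rose by 0.79 (0.021) and YBL111C, in a telomeric repeat, by 1.01 (0.027). The Ty gene YAR010C averaged 5064 at 0.5% and 3178 at 2% (log2 difference 0.70, adjusted p = 0.055, blocked 0.0090), and YBL112C, beside YBL111C, averaged 377 and 205 (0.86, 0.15, blocked 0.00016). Such genes exist in near-identical copies, so a probe set may read several loci. YBL111C was not called without any 1 of the 0.5% arrays or replicate 1 or 2 at 2% (between 0.055 and 0.15), YIL082W-A without replicate 2 or 3 at 0.5% or 1 at 2% (between 0.089 and 0.12). With the ribosomal RNA covariate they were at 0.25 and 0.13.

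GSC2, the alternative catalytic subunit of glucan synthase that is made when glucose is low, had 881, 1102 and 1027 at 0.5%, against 488, 533 and 450 at 2% glucose. The groups were far apart, with a log2 change of 1.03 (SE 0.10, adjusted p = 4.0e-05). It was the 1 called gene of 25 in the cell wall list (median 0.145), and with the block the heat shock-related wall gene HSP150, SED1, PIR1 and YPS1 joined it. A further 3 rises belonged to no list and were picked after their values were seen: NCE103, carbonic anhydrase, averaged 810 at 0.5% and 531 at 2% (0.61, adjusted p = 0.0048), YMR196W averaged 176 and 110 (0.69, 0.0030), and YDL124W, an aldo-keto reductase gene, averaged 1608 and 1156 (0.48, 0.019). YDL124W was not called without replicate 2 or 3 at 0.5% or 1 at 2% (between 0.093 and 0.11), and it was at 0.16 once ribosomal RNA was a covariate.

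The falls other than HXT1 were small, between -0.31 and -0.72 on the log2 scale. ADE17, which carries out the last steps of purine synthesis, had 1062, 1089 and 1048 at 0.5%, against 1786, 1650 and 1590 at 2% glucose. The 0.5% arrays agreed within a narrow range below every 2% array, and the log2 change was -0.65 (SE 0.08, adjusted p = 0.00020). It was the 1 called gene of 27 in the purine list, in which 23 had a negative difference (median -0.096) and 8 were lower with the block. IMD2, an IMP dehydrogenase gene of the GTP branch, had 102, 83.9 and 166 at 0.5%, against 207, 169 and 272 at 2%, with the highest 0.5% array just under the lowest 2% array (log2 difference -0.92, adjusted p = 0.18, blocked 0.00010). ADE2 differed by -0.32 (0.085, blocked 0.0091). Of amino acid genes 2 of 61 fell: GLT1, glutamate synthase, averaged 715 ± 53.4 at 0.5% and 1043 ± 37.3 at 2% (SD, n = 3 each; -0.55, adjusted p = 0.032), and HIS4, of histidine synthesis, averaged 1457 ± 45.0 and 1811 ± 78.9 (-0.31, 0.032). The list median was -0.037, near that of all genes, and 8 were lower with the block. GLT1 and HIS4 were not called without any 1 of the 6 arrays (between 0.061 and 0.15 for GLT1, and between 0.053 and 0.14 for HIS4), and at 0.084 and 0.11 with the ribosomal RNA covariate. After scaling to a common median they were at 0.090 and 0.20.

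Of the genes of hypoxic growth 3 of 18 tested fell and none rose, with a median of -0.135, and with the block 8 were lower and 2 higher. TIR1, a cell wall mannoprotein made in cold and without oxygen, had 518, 537 and 499 at 0.5%, against 811, 855 and 787 at 2% glucose, a log2 change of -0.66 (SE 0.10, adjusted p = 0.0019). ANB1, the hypoxic isoform of translation factor eIF5A, had 458, 476 and 381 at 0.5%, against 686, 636 and 625 at 2% (-0.57, 0.022). AAC3, the hypoxic ADP/ATP carrier, had 110, 144 and 148 at 0.5%, against 193, 225 and 208 at 2% (-0.65, 0.022). No array of one level crossed into the other in these genes. OLE1, the fatty acid desaturase, was higher with the block (0.39, 0.25, blocked 0.0017) and HEM13, of haem synthesis, lower (-0.25, 0.19, blocked 0.033). ANB1 was not called without replicate 3 at 0.5% or 1 or 2 at 2% (between 0.067 and 0.13) and AAC3 without replicate 1 or 2 at 0.5% or 2 at 2% (between 0.052 and 0.078). With the ribosomal RNA covariate they were at 0.22 and 0.19.

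Exporters and surface genes gave most of the remaining falls. PDR12, the exporter of weak organic acids, had 180, 259 and 274 at 0.5%, against 327, 448 and 388 at 2% glucose (-0.72, adjusted p = 0.038), and TPO1, a polyamine exporter, had 127, 135 and 140 at 0.5%, against 198, 245 and 200 at 2% (-0.67, 0.015). They were the called members among 12 exporters, of which 11 had a negative difference (median -0.115) and 3 were lower with the block. AGA1, the anchor of a-agglutinin, had 304, 293 and 297 at 0.5%, against 522, 427 and 392 at 2% (-0.58, 0.014). It was the 1 called gene of 20 in the mating list (median -0.064). With the block AGA2, FUS1 and KAR4, all induced by mating pheromone, were lower too, while PRM5 of the same list was higher. KAR4 was at -0.72 (0.10, blocked 0.0013) and FUS1 at -0.66 (0.071, blocked 0.0072). HPF1, a mannoprotein, fell by 0.56 on the log2 scale (0.039), and RSN1 and YPR1 fell by 0.34 (0.022) and 0.32 (0.023).

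The calls of these smaller falls were lost when single arrays were left out. Their sign could not change there, since the groups did not overlap. PDR12 was not called without replicate 1 or 2 at 0.5% or 2 or 3 at 2% (between 0.061 and 0.14), and TPO1 without replicate 1 or 2 at 0.5% or 2 at 2% (between 0.055 and 0.076). AGA1 was not called without replicate 2 or 3 at 0.5% or 1 at 2% (between 0.056 and 0.081), and HPF1 without any 1 of the 0.5% arrays or replicate 2 or 3 at 2% (between 0.051 and 0.19). RSN1 and YPR1 were not called without any 1 of the 0.5% arrays or replicate 1 or 2 at 2% (between 0.051 and 0.14 for RSN1, and between 0.054 and 0.13 for YPR1). With the ribosomal RNA covariate PDR12, TPO1, AGA1, RSN1 and YPR1 were at 0.11, 0.086, 0.17, 0.20 and 0.16. After scaling to a common median HPF1, RSN1 and YPR1 were at 0.053, 0.062 and 0.088.

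NOC4, a nucleolar factor of small subunit export, had 478, 425 and 405 at 0.5%, against 724, 664 and 623 at 2% glucose (-0.62, adjusted p = 0.022). It was the 1 called gene of 79 ribosome biogenesis genes, in which 71 had a negative difference and the median was -0.142. With the block 18 were lower and none higher, and the list medians within replicates 1, 2 and 3 were -0.285, -0.191 and -0.037. With the ribosomal RNA covariate the biogenesis median was -0.002, and without replicate 1 at 2% it was -0.068. None of 127 cytosolic ribosomal protein genes was called with or without the block, although 117 (92.1%) had a positive difference, against 38.5% of all tested genes, and the median was 0.152. Within replicates 1, 2 and 3 this median was 0.226, 0.318 and -0.090, so its sign was not shared by the 3 pairs. Of these genes 123 lay in the brightest decile, whose other 286 genes had a median of 0.058, and after quantile normalization the ribosomal protein median was -0.002. Mitochondrial ribosomal protein genes gave 0 of 73 (median 0.029, and 1 lower with the block) and RNA polymerase I and III genes 0 of 32 (median -0.115, or 0.068 with that covariate, and 2 lower with the block). The call of NOC4 was lost without replicate 2 or 3 at 0.5% or 1 or 2 at 2% (between 0.068 and 0.13) and with the ribosomal RNA covariate (0.22).

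**Figure D3:**
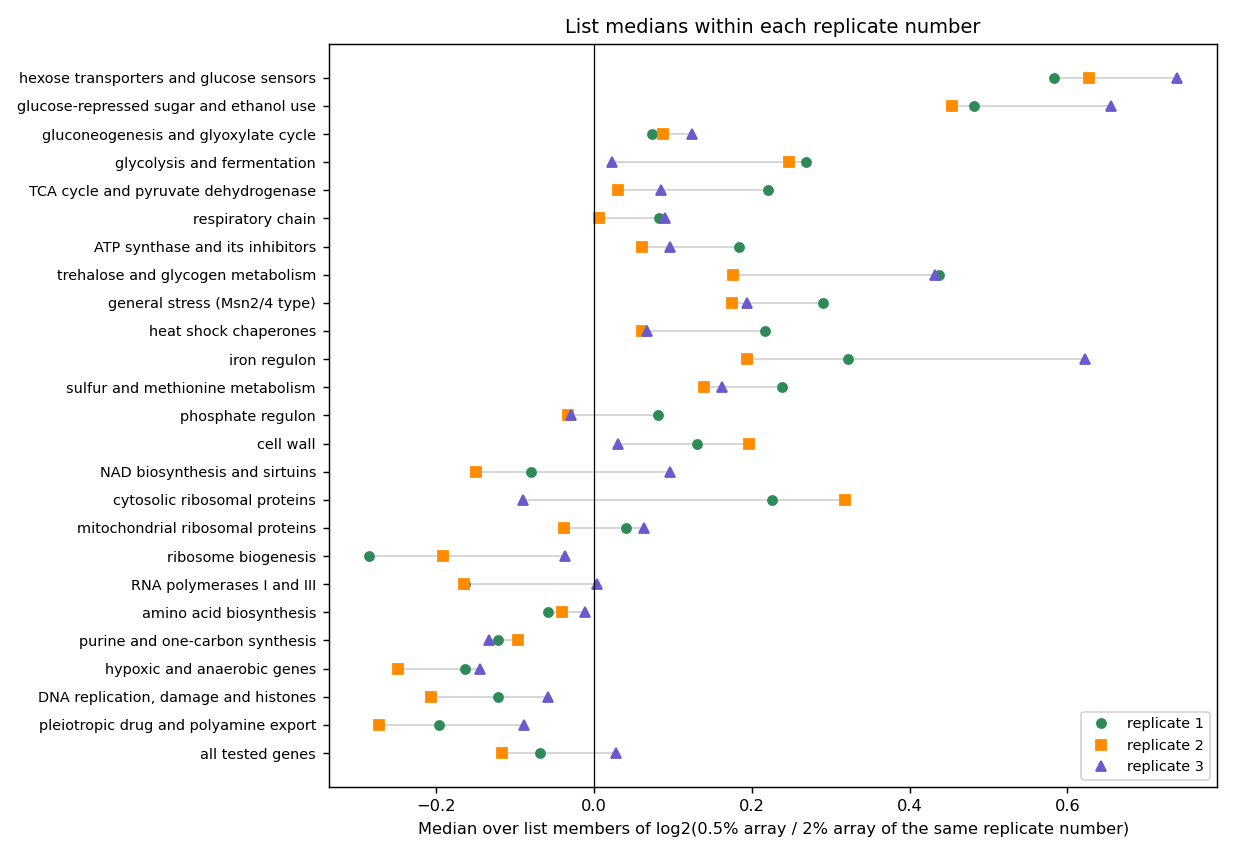
Median log2 ratio over the tested members of each gene list (horizontal axis), taken within replicate numbers 1, 2 and 3 as the 0.5% array over the 2% array of that number. Hexose carriers, sugar use, glycogen, stress and iron genes lie above 0 in all 3 pairs. So do further lists, among them glycolysis, tricarboxylic acid cycle, respiratory chain, ATP synthase, heat shock, sulfur and cell wall genes. Purine, hypoxic and export genes lie below 0 in all 3, as do ribosome biogenesis, amino acid and DNA replication genes. Cytosolic ribosomal proteins lie on both sides.

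Cell cycle and degradation genes held no called gene. For DNA replication, damage and histone genes the count was 0 of 39, with a median of -0.112 and 6 lower and 1 higher with the block. POL12, of the DNA polymerase alpha and primase complex, differed by -0.62 (adjusted p = 0.055, blocked 0.00091) and HUG1, an inhibitor of ribonucleotide reductase induced by DNA damage, by -0.48 (0.055, blocked 0.0078). The counts were 0 of 21 for mitosis and daughter separation, 0 of 15 for G1 cyclins and bud emergence and 0 of 33 for the proteasome. They were 0 of 8 for autophagy, 0 of 26 for ergosterol synthesis, 0 of 13 for fatty acid oxidation and 0 of 4 for stationary phase genes. For the activators of derepression the count was 0 of 5, with 12 listed. ADR1 and CAT8 of that list were too dim for this test and rose in the fit of all genes. With the block 3 ergosterol genes were lower and 1 higher, and 1 gene each passed in the lists of mitosis (higher), G1 and budding (lower) and stationary phase (higher). Among nitrogen catabolite-repressed genes, 0 of 12 was called and the arginine catabolism genes CAR2 and CAR1 were higher with the block (0.38, blocked 0.0033, and 0.26, blocked 0.014).

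**Figure D4:**
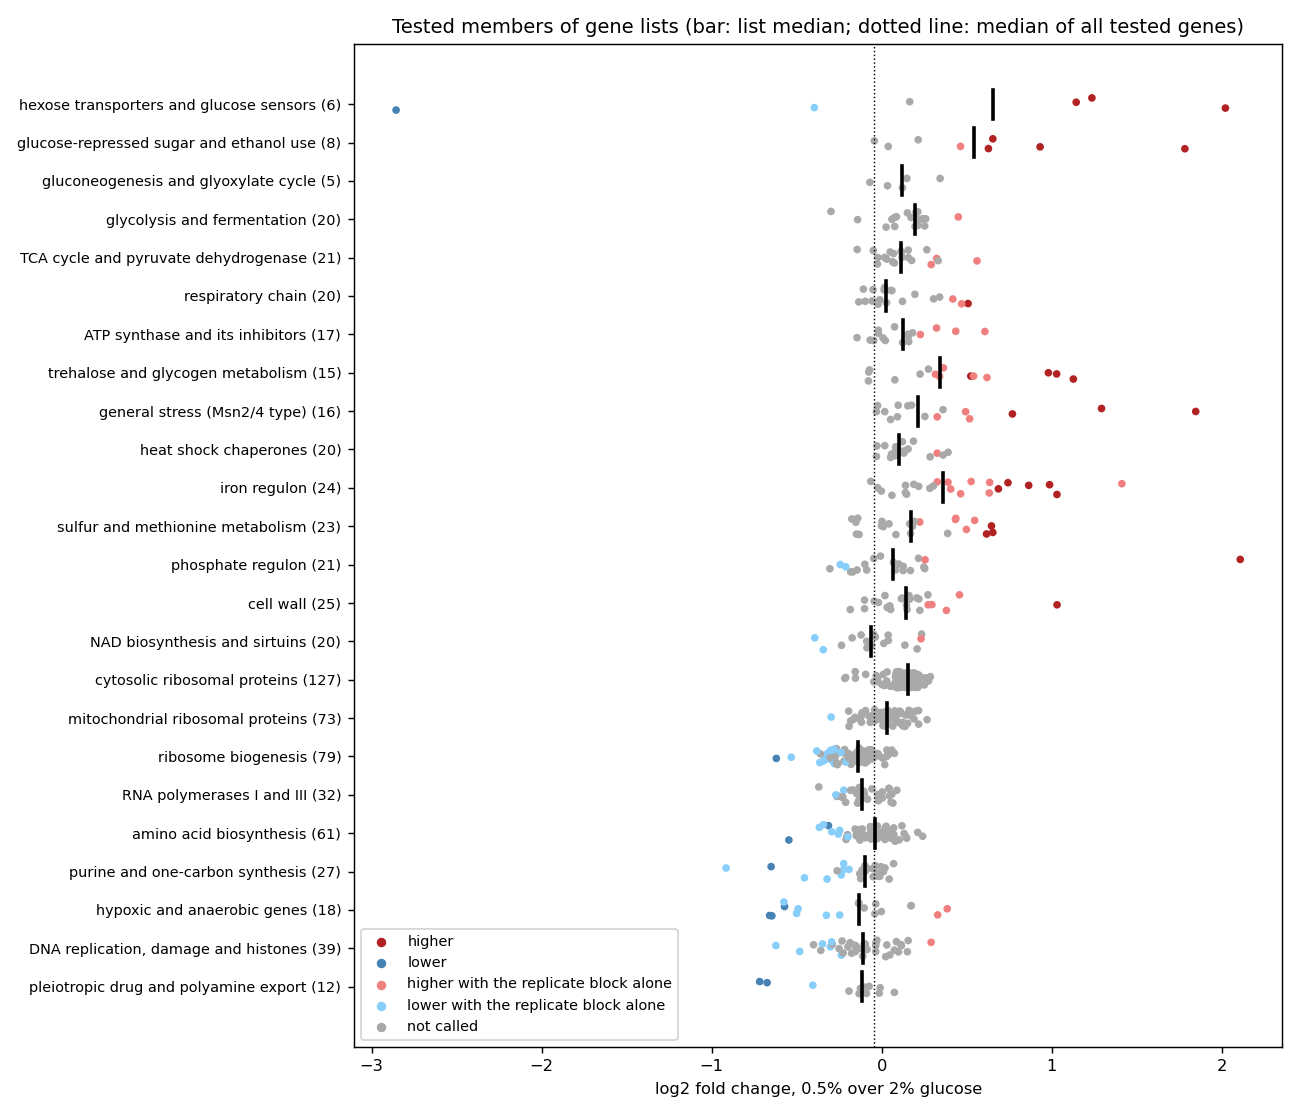
Log2 fold change at 0.5% over 2% glucose (horizontal axis) of the tested members of 24 gene lists, with the number tested in brackets; dark red and dark blue points are genes called higher and lower, pale points those called with the replicate block alone. Bars are list medians and the dotted line is the median of all tested genes, -0.048.

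The means of these genes at the other glucose levels are given next. Both the 1% and the 0.25% arrays are set against the same 2% arrays here, so these values are given side by side and not as separate evidence. For all 47 genes the mean at 1% glucose lay between the means at 0.5% and 2%. In 38 of the 47 the mean at 0.25% lay beyond that at 0.5%, in 27 of the 33 higher and 11 of the 14 lower genes. The 47 were picked for their gap between 0.5% and 2%, which makes a mean in between likely at 1%. Neither count was made over all tested genes, so no background share stands beside them. Against 2% glucose, 10 of the 47 were called at 1%, which were all the calls there (0.245%; GPH1, GSC2, HXK1, HXT1, HXT2, HXT7, PHO89, TMA10, YBL005W-A and YBL100W-A) and 47 at 0.25%, where 165 genes (4.04%) were called in all. HXT7 averaged 2275 at 0.25%, 1394 at 0.5%, 854 at 1% and 345 at 2%. HXT1 averaged 59.6, 186, 746 and 1350 in the same order, and HXT2 averaged 2848, 2670, 2113 and 1210, so that HXT2 was near its highest level by 0.5%. FIT2 averaged 2380, 2517, 1444 and 1232, with an SD of 738 at 0.25%, and YBL005W-A averaged 687, 781, 578 and 218.

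Neighbouring levels were also tested directly. At 0.5% against 1% glucose 4 genes (0.0979%) passed: TMA10 was higher by 0.96 (adjusted p = 0.0030), HXT7 by 0.71 (0.0090) and ALD4 by 0.53 (0.017), and HXT1 was lower, at -1.98 (1.2e-05). With the block 18 passed (0.441%), and without replicate 2 or 3 at 0.5% or replicate 2 at 1% the count was 2. At 0.25% against 0.5% glucose 5 genes (0.122%) passed: TMA10 was higher by 1.12 (0.00049), HXT7 by 0.71 (0.0069) and GSY1 by 0.65 (0.031), and HXT1 and HXT3 were lower, at -1.67 (0.00011) and -0.76 (0.0045). With the block 17 passed (0.416%), and without replicate 1 or 3 at 0.5% the count was 3. HXT3 averaged 1063 at 0.25%, 1784 at 0.5%, 2402 at 1% and 2353 at 2%. ADE17, FIT2 and PHO89 were not called in either step without the block.

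**Figure D5:**
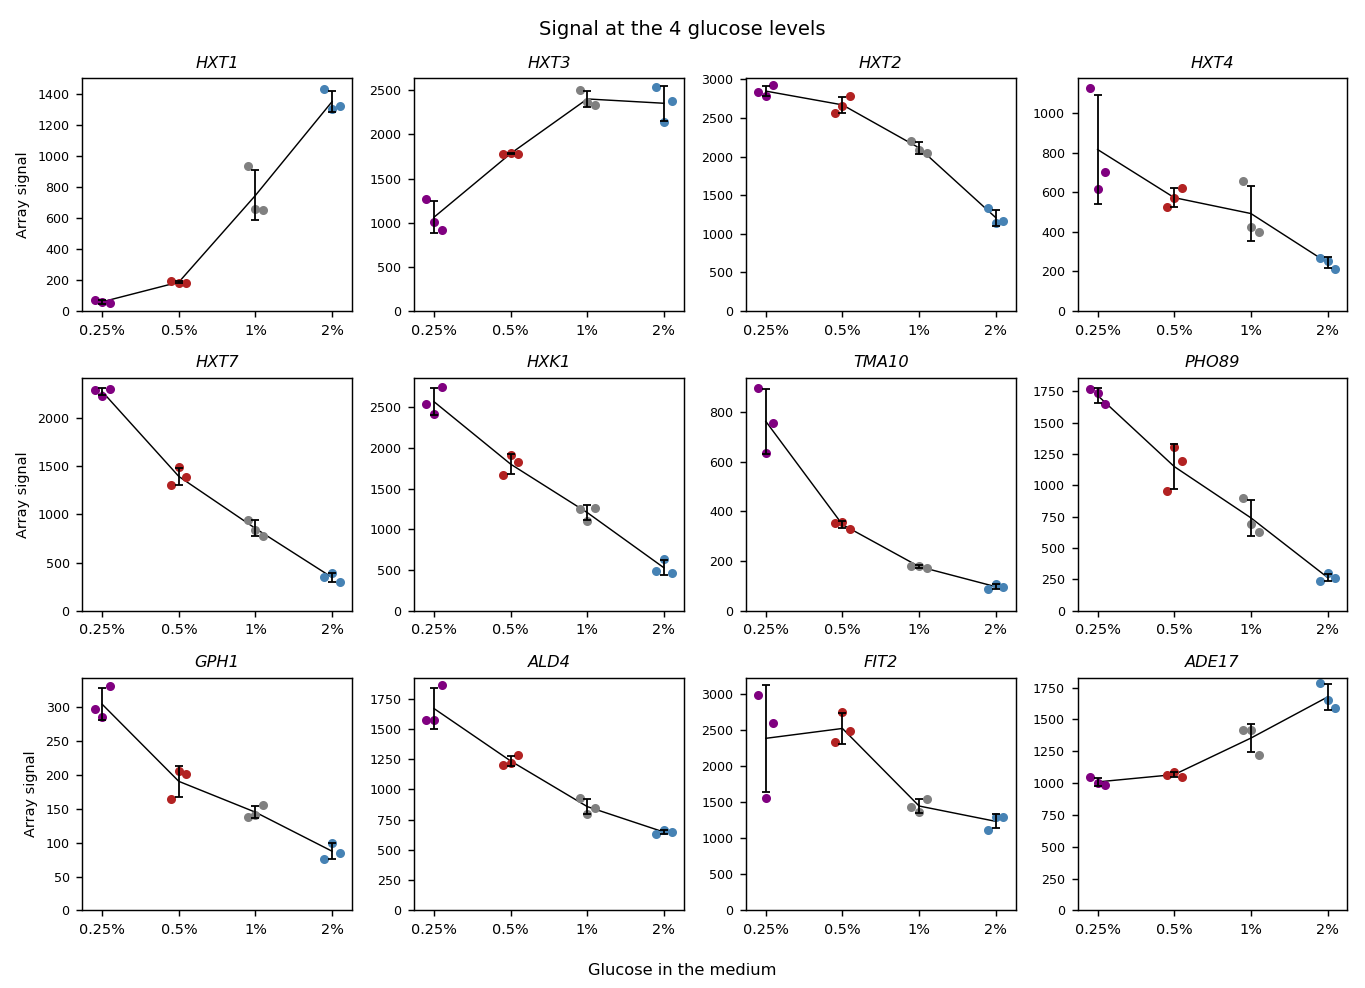
Signal (vertical axes, linear, from 0) at 0.25%, 0.5%, 1% and 2% glucose for 12 genes; points are arrays, bars the mean and SD of 3, lines join the means. HXT1 climbs and HXT7, HXK1, TMA10 and PHO89 decline along the whole range, while FIT2 and ADE17 are alike at 0.25% and 0.5%.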

How the data were processed

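Total RNA extracted with Trizol LS was biotin labelled and hybridised to one-colour Affymetrix arrays, per the labels. The authors deposited 1 intensity for each probe set, already scaled (trimmed mean 500.0 on each array); the sources used here do not give the program. Of 10928 probe sets, 5028 were at 0 on all arrays; 5498 of the 5900 above 0 were named for 1 yeast gene through GEO's platform annotation, all matched to RefSeq by gene ID with 12 symbols updated. The brightest probe set was kept for the 47 genes with several. Signals were floored at 1 and log2 transformed. No slide or scan date was used.

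The test was limma (version 3.58.1, R 4.3.3) with a mean for each glucose level, all 12 arrays in the fit, a variance prior that follows intensity, two-sided moderated tests and Benjamini-Hochberg adjustment over the 4086 genes with mean signals above 110. A gene was called at an adjusted p under 0.05, and the median standard error was 0.113 (log2). The dim filter used means over all 12 arrays. The number of arrays limits the precision. Tables were summarised with pandas 2.3.3 in Python 3.11.15, and the fit was tested on simulated data. The 39 gene lists, their members and the named genes were chosen with earlier results of these data known. Named genes are the 15 largest rises and falls among called genes whose groups do not overlap, up to 3 members of each list by size of change, and a panel of glucose and calorie restriction genes. FET3, FIT3, ENB1, ARN1, FTR1, FET4, GSY2, EMI2, NCE103, YMR196W, YDL124W, YIL082W-A, YAR010C, YBL112C, MAL33, HMX1, MET28, SUL2, IGD1 and other genes named beyond it were chosen after their values were seen.

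Replicate numbers come from the titles. Deviations from the level means correlated at 0.473, 0.186 and 0.235 in the same-numbered pairs of 0.5% and 2% arrays. In the others the correlations were between -0.472 and 0.229, so the highest of them exceeded 1 same-numbered pair. Every same-numbered pair was positive. Of the others, replicate 3 at 0.5% with replicate 2 at 2% alone was positive (0.229). The labels do not say whether the numbers pair. The main fit had no block, and the blocked fit is an alternative given beside it. The number and direction of the calls depend on this choice. Without the block 33 genes were higher and 14 lower, and with it 137 were higher and 259 lower. The blocked fit called 349 genes that the main fit did not, not all of them named here. Alternatives changed the normalization, offset, dim filter, probe set rule, block, arrays fitted, array weights, variance trend and ribosomal RNA covariate, and left out each array. Promoter motifs and sequences were not used here.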

Additional observations from a re-analysis of the deposited data

Results flagged for a closer look

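Among 209 probe sets with no listed gene in a fit of all probe sets, 7 differed between 0.5% and 2% glucose at a limma adjusted p under 0.05. The control probe sets among them also enter the averaged control measures above; the rest were in no comparison. The 25S ribosomal RNA control AFFX-25srRnae_at had 4763, 3585 and 4843 at 0.5%, against 765, 1248 and 2562 at 2% glucose (log2 change 1.69, adjusted p = 0.038). The 5′ control probe sets AFFX-r2-Sc-RIP1-5_at and AFFX-r2-Sc-SPT15-5_at were higher by 0.62 (0.010) and 0.36 (0.024), with 223, 240 and 264 at 0.5% against 148, 169 and 156 at 2% for the RIP1 control. Of the unnamed probe sets, 1779784_at was higher by 0.687 (0.040), with 507, 623 and 685 at 0.5% against 295, 429 and 409 at 2%. Probe sets 1769943_at, 1775982_at and 1777784_at were at -0.504 (0.014), -0.512 (0.026) and -0.675 (0.042). The values of these 3 at 0.5% glucose were all below those at 2%.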

How the results depend on the processing

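None of the 47 called genes changed sign in an alternative. As their groups did not overlap, leaving out an array could not change it. Among the other named genes 19, with limma adjusted p of 0.453 or more, did change sign. Over 156 named genes, 2616 of 2914 values kept their side of the threshold, 143 lost it and 155 gained it. At 0.5% against 2% glucose, where 47 genes were called (33 higher, 14 lower), quantile normalization called 92 (68 higher, 24 lower), median scaling 84 (69 higher) and the fit without the dim filter 74 (55 higher). Array weights, whose estimation stopped early, called 328 (122 higher, 206 lower), and the ribosomal RNA covariate 26 (21 higher, 5 lower). The replicate block called 396 (137 higher, 259 lower), and with the 2 levels alone 269 (110 higher, 159 lower). Leaving out single arrays gave 23 to 73 (19 to 41 higher, 4 to 41 lower). The median standard error was 0.094 with the block and 0.113 without it; other causes were not tested.

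At 0.5% against 1% (4 called, 3 higher and 1 lower), quantile normalization gave 8 (7 higher), median scaling 9 (7 higher, 2 lower), the replicate block 18 (10 higher, 8 lower), the 2 levels alone 7 (6 higher), the same with the replicate block 14 (11 higher, 3 lower), array weights 29 (24 higher, 5 lower), and single arrays left out 2 to 5 (1 to 4 higher, 1 to 2 lower). At 0.25% against 0.5% (5 called, 3 higher and 2 lower), the values were 8 (6 higher) with quantile normalization, 17 (15 higher) with the replicate block, 33 (30 higher) with the 2 levels alone and the replicate block, 22 (20 higher) with array weights, 5 higher with the ribosomal RNA covariate, and 3 to 4 (1 to 2 higher, 2 lower) with single arrays left out. MET2 was also not called with the offset of 16 (adjusted p = 0.055) or over all probe sets (0.053). The promoter motif search was not run. Dim genes, 1363 of 5449, are limited by signal over background.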

Other observations

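The replicate block called 396 genes (9.69% of those tested), 349 of them not called in the main fit. A few of these 349, all but FRE1 in no list, are given here. CTR1, the high-affinity copper carrier, had 1133, 1420 and 1638 at 0.5%, against 802, 1009 and 894 at 2% glucose (log2 difference 0.62, adjusted p = 0.16, blocked 0.024). FRE7, a metalloreductase, had 140, 151 and 170 at 0.5%, against 81.5, 103 and 88.1 at 2% (0.76, 0.13, blocked 0.028), and FRE1, another metalloreductase of the iron list, differed by 0.53 (0.18, blocked 0.042). The RNA helicase gene DED1 had 575, 805 and 881 at 0.5%, against 320, 473 and 478 at 2% (0.83, 0.068, blocked 0.0017), and averaged 783 at 1% glucose. These genes were chosen after their values were seen.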
